A study of Danio rerio with 5 samples.

Results

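In whole zebrafish embryos, 26932 genomic regions carried a MethylCap-seq peak at dome stage and none at 24 or 48 hours post fertilisation (hpf). MethylCap-seq captures DNA fragments with methylated CpGs on a methyl-CpG binding protein and sequences them. The peak lists of dome, 24 hpf and 48 hpf were merged on chromosomes 1 to 25 wherever peaks overlapped by at least 1 bp, which gave 373137 regions, and a region was taken as dome-only when every peak in it came from the dome list. Of the merged regions, 213405 held a dome peak, and 12.6% of these were dome-only. Each dome-only region consisted of exactly 1 dome peak. The regions were chosen by the presence and absence of called peaks in these 3 lists, so the fold enrichment, width and pileup of these peaks describe them and are not tested.

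The groups were MethylCap at dome, 24 hpf and 48 hpf, and ChIP-seq of the histone mark H3K27me3 at dome and 48 hpf. All 5 came from whole embryos of mixed AB and Tubingen background, with 1 library per group, so no value has a replicate check, and stages were compared without p-values. A whole embryo mixes many cell types at 24 and 48 hpf, and how many embryos went into a library is not stated in the labels. Positions are on danRer7. A danRer7 genome sequence and annotation were not used here, so no gene or sequence is given for a region.

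Cytosine methylation at CpG covers most of the vertebrate genome and is copied at DNA replication by Dnmt1. Dome is a blastula stage shortly after the zygotic genome becomes active, by which, in zebrafish, the maternal genome has taken on a methylation pattern like that of sperm, while the sperm pattern itself is kept. In later vertebrate embryos, Tet enzymes oxidise methylated cytosine at many regulatory elements. H3K27me3 is the repressive mark that Polycomb repressive complex 2 places on silent developmental genes, and it is typically found on CpG-rich sequence that lacks DNA methylation.

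The depth behind each call could be read from the deposited values. In all 3 MethylCap lists, the fold and the p-value of 100% of the peaks corresponded to a whole number of fragments over the peak summit, called the pileup here, and to a local expectation. The fold is the pileup plus 1 over that expectation plus 1. Where the expectation lay above its genome-wide minimum, it equalled a whole number of reads in 10 kb in 100% of the peaks. The genome-wide minimum was 103 reads per 10 kb at dome, 139 at 24 hpf and 78.2 at 48 hpf. Relative to dome, the 24 hpf library was therefore the deeper one and the 48 hpf library the shallower one. The narrowest peaks, whose width is the fragment length used by the caller, measured 244 bp at dome, 192 bp at 24 hpf and 211 bp at 48 hpf. At the genome-wide minimum, the weakest called peak had a pileup of 8 at dome, 8 at 24 hpf and 6 at 48 hpf, and a fold of 2.55, 2.46 and 2.64. A region without a call may still have been methylated below those limits.

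Dome-only regions were narrow and modest in enrichment, and together covered 8.48 Mb. Their width ran from 244 to 1411 bp with a median of 287 bp and quartiles of 253 and 344 bp. By contrast, the median dome peak measured 324 bp where 24 hpf alone also had a peak, 322 bp where 48 hpf alone did, and 442 bp where all 3 stages did. Of the dome-only regions, 4785 (17.8%) had the smallest width the caller gives, against 10.6%, 10.02% and 3.94% of the dome peaks in those 3 other classes. The median fold was 3.69 (quartiles 3.12 and 4.26, range 1.44 to 10.1) in dome-only regions, against 3.97 with 24 hpf, 3.75 with 48 hpf and 4.39 with all stages. Summits lay near the middle of the peak in all classes, at 48.3% of the width in dome-only regions and 48.8% in dome peaks found at all stages (medians).

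The median pileup of a dome-only region was 16 fragments (quartiles 13 and 19, range 8 to 125), the same median as in dome peaks shared with 24 hpf alone, against 17 in those shared with 48 hpf alone and 19 in those found at all stages. The share of dome peaks without a later call was 24.4% (Wilson 95% interval 20.7 to 28.5%) at pileups of 8 or 9, 16.04% (15.7 to 16.4%) at 14 or 15, and 7.17% (6.92 to 7.43%) at 21 to 25. It did not go on falling at greater heights. At pileups of 31 to 40 it was 9.27% (8.71 to 9.85%), and at 61 or more it was 6.67% (5.08 to 8.70%). These intervals cover counting error only and treat peaks as independent. The median fold of dome-only regions was 2.84 at pileups of 8 or 9, 4.18 at 14 or 15, and 1.89 at 61 or more. The tallest pileups were thus not the most enriched peaks. With dome peaks ranked by −log10 q into 10 groups of nearly equal size, the dome-only share fell at each step. It was 22.5% in the lowest group and 1.23% in the highest. By width the share fell throughout, from 28.2% among dome peaks of 244 bp to 0.622% (0.533 to 0.726%) among those above 700 bp. A wider peak meets a later peak more readily, so a decline with width is built into the rule and is given as a description.

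**Figure D1:**
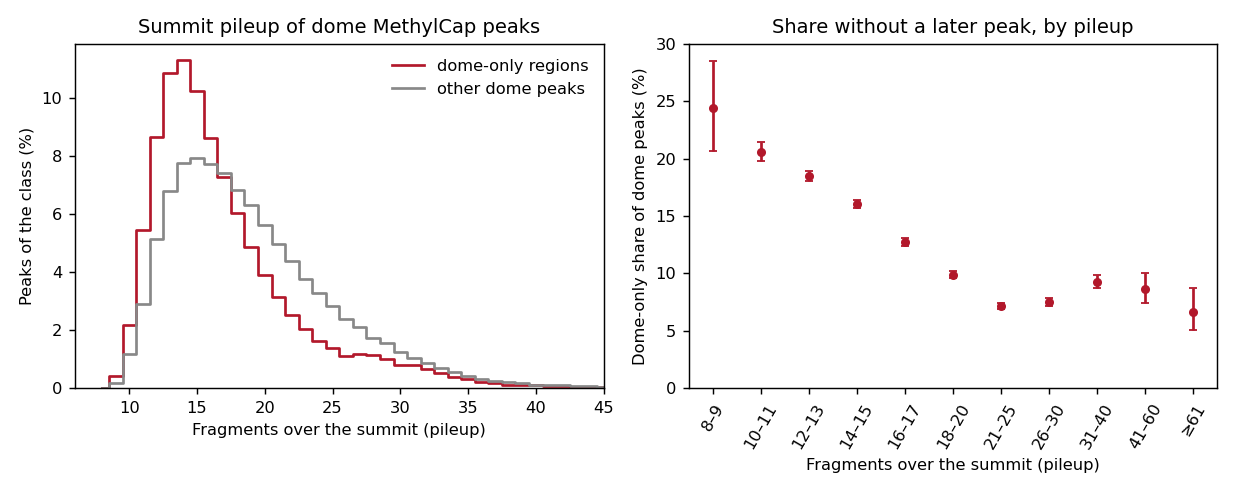
Left, distribution of the summit pileup (fragments over the summit) for dome-only regions and for all other dome MethylCap peaks, in percent of each class, drawn up to 45 fragments. Right, share of dome peaks without a peak at 24 or 48 hpf by pileup, with Wilson 95% intervals; it lies at 24.4% for pileups of 8 or 9 and at 7.17% for 21 to 25, and at 9.27% for 31 to 40.

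At the genome-wide minimum, the weakest folds called in the later lists lay close to the weakest dome fold. A comparison with them therefore cannot set dome-only regions apart from other dome peaks. Of the 9052 dome-only regions whose local expectation was at the genome-wide minimum, all had a dome fold at or above the weakest fold called at 24 hpf under the same condition, which follows from the weakest dome fold being 2.55. For 48 hpf the count was 9051 of 9052 (99.989%). The share was 99.987% in dome peaks shared with 24 hpf alone, 100% with 48 hpf alone and 99.997% with all stages. These shares follow from the call limits and do not show the signal in the later libraries. The median pileup of these 9052 regions was 14, equal to that of dome peaks at the minimum that were shared with 24 hpf alone or with 48 hpf alone, against 16 for those found at all 3 stages. Few dome-only regions were among the most significant dome peaks. A −log10 q of at least 10 was reached by 460 of the 26932 dome-only regions and by 28543 dome peaks in all, a dome-only share of 1.61%. At a −log10 q of at least 20 there were 8 among 1327.

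Dome-only calls were more frequent where more than 250 reads lay in the surrounding 10 kb. The dome-only share was 12.2% (11.95 to 12.4%) among dome peaks at the genome-wide minimum. It was lowest, at 10.9% (10.6 to 11.2%), with 120 to 150 reads, and 12.1% (11.6 to 12.6%) with 200 to 250. With 250 to 400 reads it was 14.6% (14.07 to 15.2%), with 400 to 800 it was 21.03% (20.2 to 21.9%). With 800 or more it was 15.98% (13.5 to 18.9%). The 2034 dome-only regions with 400 or more reads in 10 kb had a median pileup of 30 but a median fold of only 2.32. Of these, 324 (15.9%) lay on chromosome 4, which held 5.77% of all dome-only regions. Without chromosome 4, the dome-only share in such dense surroundings was 20.9%. The median distance from these regions to a later peak was 379 bp.

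A few dome-only regions had very tall peaks, and the 3 with the highest −log10 q lay in such dense surroundings. The region with the highest −log10 q (69.3) was 557 bp long on chromosome 23, at 22487753 to 22488309. It had a pileup of 122 and a fold of 8.94, with 523 reads in 10 kb. The nearest 48 hpf peak began 35 bp away with a pileup of 16 and a fold of 2.55, and the nearest 24 hpf peak lay 139 bp away with a pileup of 16 and a fold of 2.47. The second region, of 387 bp, lay on the same chromosome at 22473050 to 22473436, with a pileup of 124 and a fold of 7.45. Its nearest 24 hpf peak was 1826 bp away and had a pileup of 27. Over the stretch from 22467753 to 22493309, the peaks that lay in it or reached into it were 10 in the dome list, with pileups of 32 to 124, 13 in the 24 hpf list, with pileups of 16 to 37, and 5 in the 48 hpf list, with pileups of 16 to 26. Methylated DNA was thus called over this stretch at every stage, and the other 8 dome peaks, of which the 1 that reaches in at the lower edge was dome-only, had pileups of at most 68.

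The third region by significance lay on chromosome 13 at 48684651 to 48685037. It had a pileup of 106 and a fold of 7.80 at dome, and its nearest later peaks, 2011 bp away at 48 hpf and 2022 bp away at 24 hpf, had pileups of 27 and 40. It was again a peak of 387 bp, and it overlapped an H3K27me3 dome peak of 148 bp with a fold of 3.99. The highest fold among dome-only regions, 10.1, belonged to 654 bp on chromosome 4 at 36576465 to 36577118, with a pileup of 43 and 138 reads in 10 kb. Its nearest later peaks were 537 bp (48 hpf, pileup 14) and 664 bp (24 hpf, pileup 16) away. A region on chromosome 18 at 39507289 to 39507725 had a fold of 9.20 with a pileup of 32 in sparse surroundings of 106 reads per 10 kb, and later peaks at 354 bp (24 hpf) and 404 bp (48 hpf). The widest dome-only region, of 1411 bp, on chromosome 8 at 10967841 to 10969251, was weak, with a fold of 3.56 and a pileup of 16, and ended 78 bp from a 24 hpf peak. The next in width, of 1332 bp each, were on chromosome 18 at 47577997 to 47579328 (fold 3.78) and on chromosome 23 at 45989278 to 45990609 (fold 4.22).

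**Figure D2:**
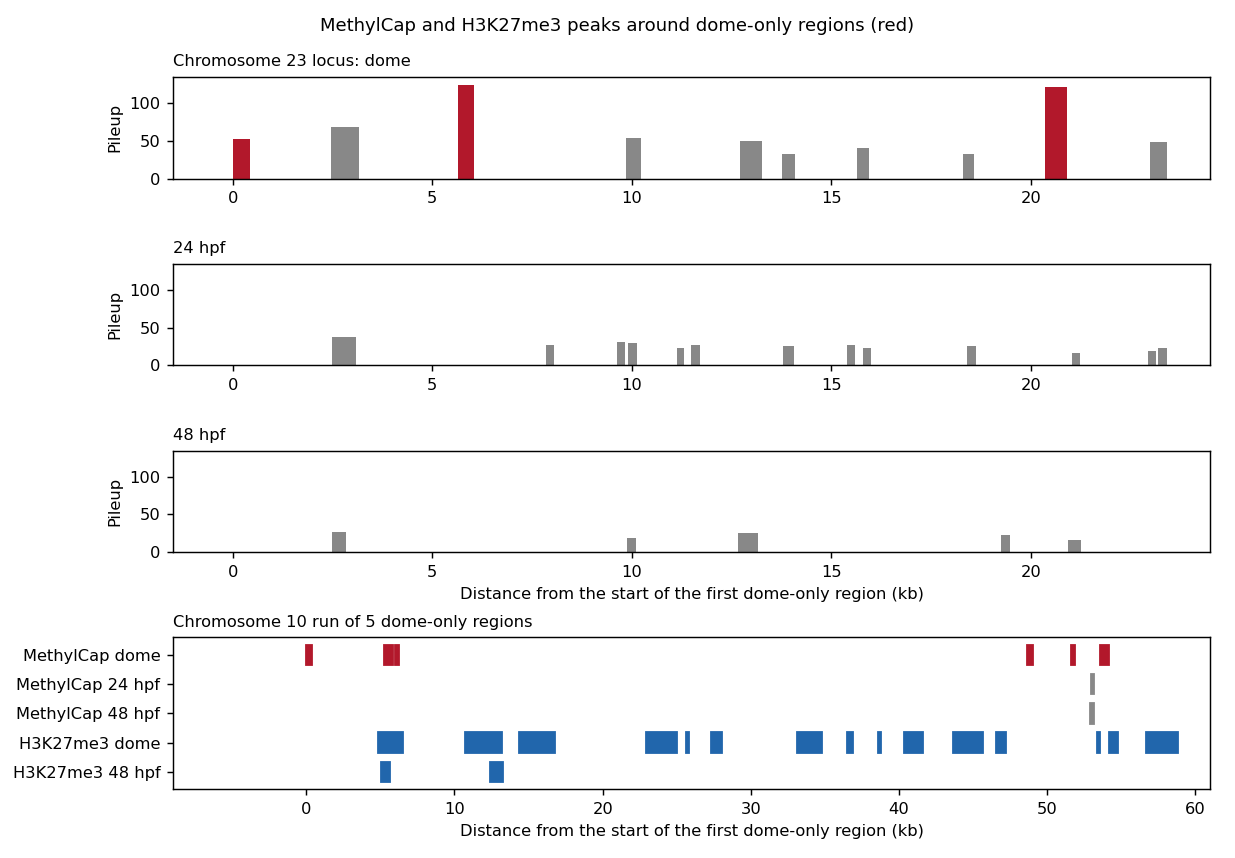
The upper 3 panels show every MethylCap peak over the chromosome 23 stretch at dome, 24 hpf and 48 hpf, as bars of the peak's width and summit pileup (y axis, fragments) against distance from the first dome-only region (kb). The lowest panel shows the peaks of all 5 lists around the chromosome 10 run as boxes without height; dome-only regions are red, other MethylCap peaks grey and H3K27me3 peaks blue, and the sixth red box lies beyond the 24 and 48 hpf peaks that end the run.

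Of the dome-only regions, 54.2% lay within 1000 bp of a later methylation call. The median distance to the nearest 24 or 48 hpf peak was 875 bp (95% interval 857 to 892), with quartiles of 361 and 1932 bp. For the 24 hpf list alone it was 1035 bp and for the shorter 48 hpf list 1810 bp. The 24 hpf peak was the nearer one for 18540 regions (68.8%) and the 48 hpf peak for 8350. A later peak lay within 500 bp of 8929 regions (33.2%) and beyond 5 kb of 1376 (5.11%). Regions called at 48 hpf alone were placed much like the dome-only ones, at a median of 887 bp from the nearest dome or 24 hpf peak, whereas regions called at 24 hpf alone lay 1456 bp from the nearest dome or 48 hpf peak. These distances, and which later stage is nearer, depend on how many peaks the other lists hold. The 24 hpf list held 330176 peaks and the 48 hpf list 192673, on a chromosome span of 1357 Mb. Distances from other positions of the genome were not set beside them, so closeness is not shown to be particular to dome-only regions. The nearest region with a dome peak that was not itself dome-only lay at a median of 1785 bp.

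**Figure D3:**
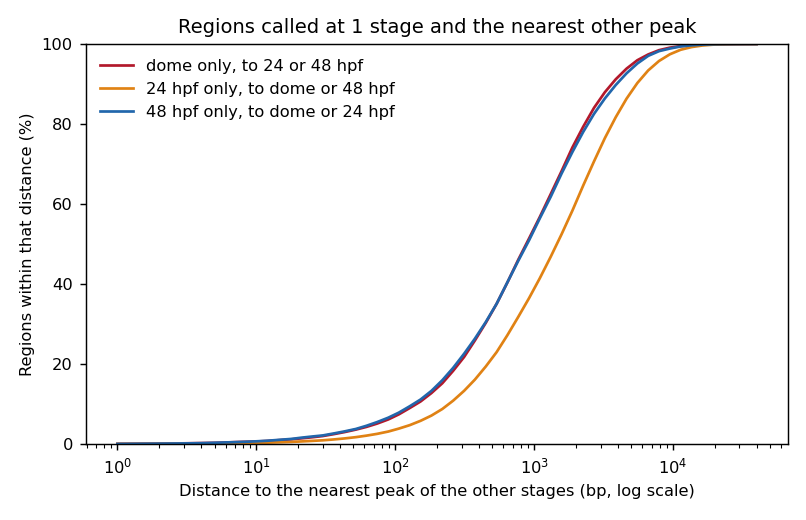
Cumulative share of regions called at 1 stage only (y axis, percent) that have a peak of the other 2 stages within the distance on the x axis (bp, log scale). The dome-only curve (median 875 bp) and the 48 hpf-only curve (887 bp) run together, and the 24 hpf-only curve (1456 bp) lies to their right.

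The rule makes no distinction between a near miss and an isolated region, and peaks on both sides of its boundary were alike. The 175 dome-only regions that lay 1 to 10 bp from a later peak had a median fold of 3.02, a pileup of 17 and a width of 297 bp. The 217 dome peaks left out because they overlapped a later peak by only 1 to 10 bp had a median fold of 3.06, a pileup of 17 and a width of 302 bp. With distance the median fold was higher and the pileup lower. Regions within 100 bp of a later peak had a median fold of 3.12 and a pileup of 17, and the 1164 regions 5 to 10 kb away had a fold of 4.01 and a pileup of 14. Of the regions 5 to 10 kb away, 95.2% had a local expectation at the genome-wide minimum, against 19.0% of those within 100 bp.

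The most isolated dome-only regions lay on chromosomes 10 and 15. On chromosome 10, 257 bp at 21733133 to 21733389 (fold 3.12, pileup 10) and 629 bp at 21732347 to 21732975 (fold 4.26, pileup 14) were 34548 and 33762 bp from any later peak. On chromosome 15, 255 bp at 11712196 to 11712450 (fold 4.26, pileup 14) lay 31974 bp from one.

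Dome-only regions made up 7.22% of the merged regions, which include those called after dome alone. Of the 26932, 23039 (85.5%) had no other dome-only region next to them in the merged set, a share that depends on that 7.22% and is given as a description. The other 3893 (14.5%) formed 1859 runs of 2 to 7 dome-only regions with no later peak between them. In the order along a chromosome, the next region with a dome peak was dome-only in 13.3% of cases (12.9 to 13.8%) after a dome-only region, against 12.5% (12.4 to 12.7%) after any other. Another dome-only region lay within 5 kb of 5906 regions (21.9%, 21.4 to 22.4%), and the median gap between consecutive ones was 31068 bp.

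The longest run joined 7 dome-only regions over 23.2 kb of chromosome 13 (11859348 to 11882554), with folds of 2.84 to 4.78 and pileups of 9 to 18. None of its 7 regions met an H3K27me3 peak, but a dome H3K27me3 peak of 803 bp with a fold of 4.28 lay between them. Of the 7 regions, 6 fell within 11.2 kb and also formed the largest group at a spacing of 5 kb. A run of 6 on chromosome 19 (33554097 to 33572922) had pileups of 13 to 21. A run of 5 on chromosome 10 spanned 51.9 kb (21727133 to 21778990) and contained the 2 most isolated regions named above. There, the dome H3K27me3 list held 15 peaks within 8 kb of the run or inside it, with folds of 1.57 to 3.05. One of them, of 1677 bp, covered the 2 isolated MethylCap regions. The 48 hpf H3K27me3 list held 2 peaks, and the MethylCap lists of 24 and 48 hpf 1 each, at the end of the run.

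Chromosome 4 had the highest share of dome-only regions. Of its 10584 regions with a dome peak, 1555 (14.7%, 14.03 to 15.4%) were dome-only, against 11.7% on chromosome 9 to 13.7% on chromosome 3 among the others. Its density was 25.04 dome-only regions per Mb, against 18.2 to 23.2 elsewhere. The share was high in the part of the chromosome from 30 Mb onward, where 1108 of 6653 (16.7%, 15.8 to 17.6%) were dome-only, whereas below 25 Mb it was 323 of 3052 (10.6%, 9.54 to 11.7%). The stretch from 25 to 30 Mb was not taken separately, so where the excess begins is not shown. Dome-only regions beyond 30 Mb had a median fold of 3.09, a pileup of 21 and 240 reads in the surrounding 10 kb, against 3.69, 15 and 126 on the other chromosomes. H3K27me3 at dome was present in 62 of these 1108 (5.60%, 4.39 to 7.11%). It was present in 2.97% (2.77 to 3.18%) of dome-only regions on the other chromosomes and in 6 of 323 below 25 Mb. The share among the other dome peaks beyond 30 Mb was not set beside these, so the difference cannot be read as particular to dome-only regions. The distal part of this chromosome is known in zebrafish to be repeat-rich, and the part that read mapping plays in these values was not tested.

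**Figure D4:**
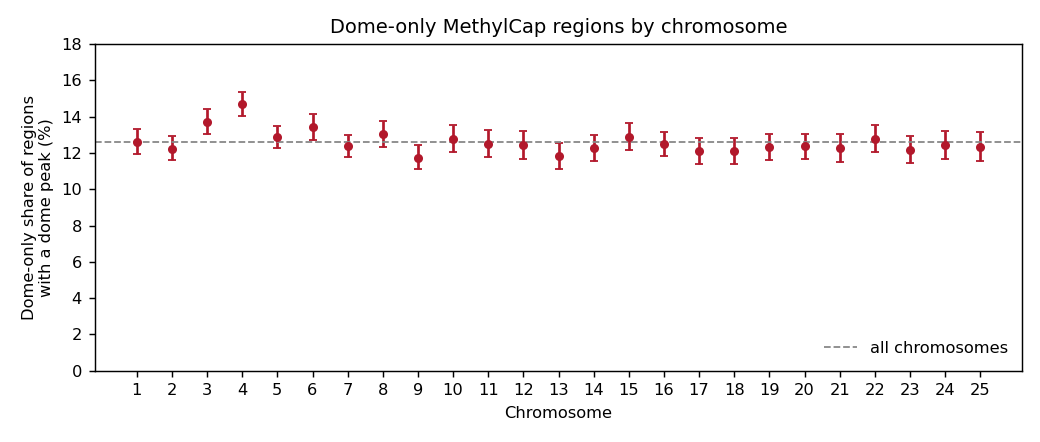
Share of regions with a dome MethylCap peak that had no peak at 24 or 48 hpf (y axis, percent) on each chromosome, with Wilson 95% intervals; the dashed line is the share over all chromosomes (12.6%). Chromosome 4 (14.7%) lies highest and chromosome 9 (11.7%) lowest.

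H3K27me3, which the selection did not use, was uncommon at both stages in dome-only regions, as it was in all merged MethylCap regions. A dome H3K27me3 peak was present in 825 of 26932 regions (3.06%, 2.86 to 3.28%), against 3.88% of all merged MethylCap regions. At 48 hpf the count was 125 (0.464%, 0.390 to 0.553%), against 0.401% of all merged regions. Both stages had a peak in 98 regions, dome alone in 727 and 48 hpf alone in 27, so that 26080 (96.8%) had none. The H3K27me3 list held 31983 peaks at dome but 6434 at 48 hpf, so these counts are not compared between stages. Regions with a MethylCap call at all 3 stages likewise had dome alone in 6974 and 48 hpf alone in 188. In the other classes of dome peaks, the share with H3K27me3 at dome was 2.68% with 24 hpf alone, 5.26% with 48 hpf alone and 5.82% with all stages. The share at 48 hpf was 0.308%, 0.585% and 0.519% in the same order.

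Wide peaks meet other peaks more readily, so the classes were also set side by side at like width. Among dome peaks of 244 to 270 bp, 2.60% (2.31 to 2.92%) of the dome-only regions had H3K27me3 at dome, against 2.001% (1.79 to 2.24%) of those shared with 24 hpf alone, 4.17% (3.49 to 4.97%) with 48 hpf alone and 3.43% (3.13 to 3.76%) with all stages. Dome-only regions thus lay between the peaks shared with 24 hpf alone and those that still had a call at 48 hpf. The order was the same in each class up to 700 bp. The intervals of dome-only regions and of peaks shared with 24 hpf alone overlapped at 271 to 320 bp and at 321 to 400 bp, and above 400 bp those of dome-only regions overlapped the intervals of peaks found at all stages. Above 700 bp, 23 of 161 dome-only regions (14.3%, 9.71 to 20.5%) had H3K27me3 at dome, against 5.997% (4.93 to 7.28%) with 24 hpf alone, 11.7% (8.51 to 15.9%) with 48 hpf alone and 9.76% (9.39 to 10.1%) with all stages. Of these, the interval with 24 hpf alone did not overlap that of the dome-only regions. At 48 hpf, 6 of those 161 did (3.73%, 1.72 to 7.89%), against 0.631% (0.343 to 1.16%) of the equally wide peaks shared with 24 hpf alone, 0.690% (0.189 to 2.48%) with 48 hpf alone and 1.05% (0.927 to 1.19%) with all stages. The interval with 48 hpf alone overlapped that of the dome-only regions.

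By bases, which are less affected by width, 2.23% of the sequence in dome-only regions lay in dome H3K27me3 peaks, against 1.61%, 3.796% and 3.42% in dome peaks shared with 24 hpf alone, 48 hpf alone and all stages. These H3K27me3 peaks covered 1.32% of the chromosome span. For 48 hpf H3K27me3 the value in dome-only regions was 0.424%, close to the 0.471% of the span. In the other classes, in the same order, it was 0.233%, 0.401% and 0.415%. The median distance to the nearest dome H3K27me3 peak was 14.5 kb from dome-only regions and 14.6 kb from all other dome peaks. In surroundings of 400 or more reads per 10 kb the classes were farther apart. There, 58 of 2034 dome-only regions (2.85%, 2.21 to 3.67%) had H3K27me3 at dome, against 10.1% (9.44 to 10.8%) of the 7809 other dome peaks. The dome-only regions there had a median width of 317 bp. These groups were not matched for width, so the difference is given as a description.

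**Figure D5:**
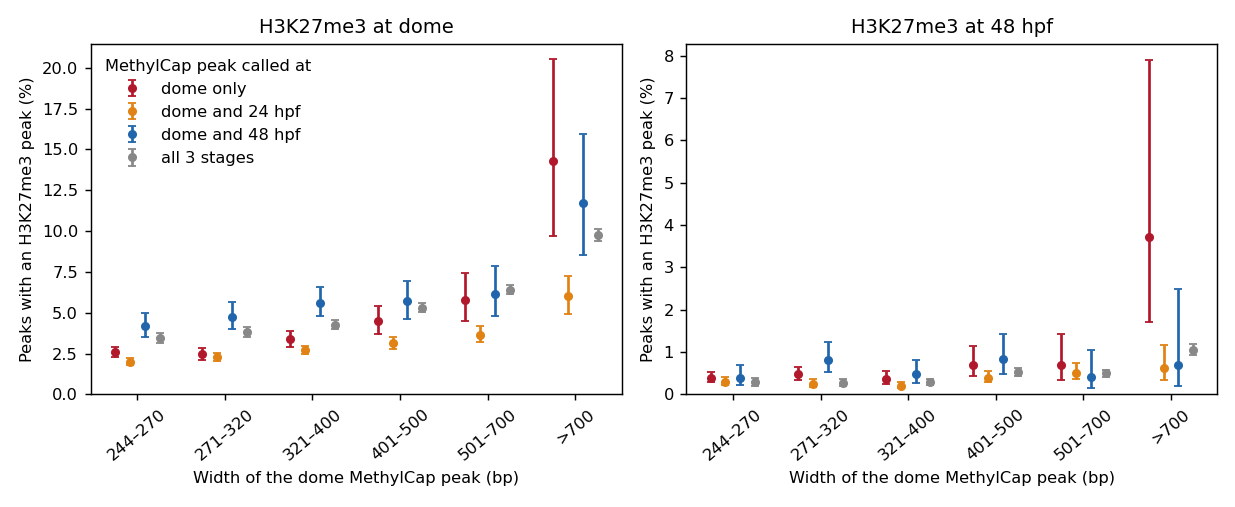
Share of dome MethylCap peaks that overlap an H3K27me3 peak at dome (left) or 48 hpf (right), in percent, by width of the MethylCap peak and by the stages at which it was called, with Wilson 95% intervals. Dome-only peaks lie between those shared with 24 hpf alone and those found at all stages up to 700 bp at dome, and reach 14.3% above 700 bp.

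The H3K27me3 peaks that met dome-only regions were wider than the other H3K27me3 peaks, and more of them were found at both stages than among those meeting other methylated regions. At dome they numbered 799, with a median width of 559 bp, and 105 (13.1%, 10.97 to 15.7%) overlapped a 48 hpf H3K27me3 peak. The 8658 H3K27me3 peaks that met another dome MethylCap peak but no dome-only region had a median width of 407 bp, and 6.595% (6.09 to 7.14%) were found at both stages. Of the 22526 that met no dome MethylCap peak, 19.1% were. Of the 113 H3K27me3 peaks of 48 hpf that met a dome-only region, 89 (78.8%, 70.3 to 85.3%) were also in the dome list. The share was 66.96% (63.6 to 70.2%) among 48 hpf peaks that met another dome MethylCap peak but no dome-only region. Among those that met no dome MethylCap peak it was 73.4%, inside the interval of the peaks that met a dome-only region. An H3K27me3 peak that met both kinds of region was counted with the dome-only ones, which places wide peaks there by construction. Wide peaks also meet a peak of the other stage more readily. The classes were not matched for width, so these differences are given as a description.

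Some dome-only regions carried strong H3K27me3, and others had H3K27me3 folds near the median of the list. That median was 3.15 at dome and 3.11 at 48 hpf. On chromosome 2, the 344 bp region at 13838899 to 13839242 (MethylCap fold 3.99, pileup 98) lay inside an H3K27me3 peak of 666 bp at dome with a fold of 8.91 and one of 582 bp at 48 hpf with a fold of 10.8. Its nearest later MethylCap peaks, 1359 bp away at 48 hpf and 1445 bp away at 24 hpf, had pileups of 20 and 39. It had the densest surroundings of the regions named here, with 975 reads in 10 kb. A second region on that chromosome, at 49370380 to 49370738 (fold 5.96, pileup 20), was sparse, at the genome-wide minimum of reads, and had H3K27me3 folds of 6.51 at dome and 3.17 at 48 hpf, with no later methylation call within 4609 bp. On chromosome 12, the region at 50479539 to 50480104 (fold 5.12) had H3K27me3 folds of 4.05 at dome and 3.68 at 48 hpf. Among regions with H3K27me3 at dome alone, one on chromosome 10 at 27392275 to 27392728 had a MethylCap fold of 7.66, an H3K27me3 fold of 3.05 and no later methylation call within 6175 bp. Among the 27 with H3K27me3 at 48 hpf alone, the most significant MethylCap peak, on chromosome 1 at 27538387 to 27538989, had a fold of 4.31 and an H3K27me3 fold of 3.05 at 48 hpf.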

How the data were processed

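The submitters' processing notes name MACS2, SAMtools, Bowtie2 2.2.1 and CASAVA 1.8.2, with danRer7 as the build. Parameters, input controls, duplicate handling and pooling are not stated there or in the labels. The authors deposited 1 peak list per library. Each deposited fold is the enrichment over the caller's local background, and each deposited −log10 p or q value is the caller's. In the MethylCap lists the deposited score is 10 times −log10 q without decimals, except in 6 dome peaks. Their deposited summit offset is in bases from the peak start. The H3K27me3 lists have 9 columns and no summit, so their folds and the MethylCap folds are not taken as like measures.

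Whole pileups and local expectations were solved from the fold and p-value (tolerance 0.001 in −log10 p, 0.05 reads in 10 kb). This step, and the limits of the width, pileup and read classes, were set after the files were seen. It assumes MACS2's usual formulas. Fragments were not identified by molecular tags. Intervals are 95% Wilson or, for medians, binomial order-statistic intervals. Regions named are those with the highest −log10 q, fold or width, the farthest from later peaks, the longest runs and largest groups, and the most significant by H3K27me3 status, of which a selection is printed. Members and settings were chosen with earlier results of these data known. Interval and pileup routines were tested on simulated data. Computations used Python 3.11.15, NumPy 2.4.6, pandas 2.3.3, SciPy 1.17.1 and Matplotlib 3.10.9. Alternatives are in the closing section.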

Additional observations from a re-analysis of the deposited data

Results flagged for a closer look

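Peaks on the mitochondrial genome were outside the merged regions. The MethylCap dome list held 7 of them, with folds of 2.53 to 8.58, and the 24 hpf list 4, with folds of 3.27 to 3.82, whereas the 48 hpf list held 0. They are given because they lie in sequence that only the alternative with all sequences used. The 48 hpf library was also the shallowest, with 78.2 reads per 10 kb as its genome-wide minimum, against 103 at dome and 139 at 24 hpf, so the counts of peaks are not compared between stages. The labels name no control sample, and the part that depth plays in these counts was not tested.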

How the results depend on the processing

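The main values were 26932 regions, 12.6% of those with a dome peak, a fold of 3.69, a width of 287 bp, 875 bp to the nearest later peak and 21.9% with a neighbour within 5 kb. Values outside their intervals, or for the count beyond 1.5 times, follow in that order of quantities. With an overlap of 50% or more of the shorter peak required, they were 14.5%, fold 3.59, 289 bp, 649 bp and 26.8%. In that 649 bp, regions with a smaller overlap counted as having no distance, so it is not a like measure to 875 bp. With peaks within 1 kb merged, the values were 11619 regions, 6.96%, fold 3.904, 2117 bp to a later peak and 7.94%. In the higher-scoring 50% of the dome list, they were 6913 regions, 6.34%, fold 4.58, 324 bp, 1096 bp and 4.93%. In the higher-scoring 50% of each list, they were 22.6%, fold 4.65, 359 bp, 2080 bp and 15.7%, with H3K27me3 in 1.97% at dome and 0.215% at 48 hpf. With equal numbers of peaks, they were 20.95%, fold 3.96, 307 bp, 1316 bp and 27.6%. Halving the H3K27me3 lists alone gave 1.92% and 0.282%. Of the alternatives chosen after seeing the data, counting a later peak within 500 bp gave 8.16%, fold 3.73, 285 bp, 1493 bp and 15.5%, and leaving out dome peaks with 400 or more reads in 10 kb gave 11.8%, 285 bp, 937 bp and 19.6%. The shares of 14.5%, 8.16% and 11.8% were taken over dome peaks and the main 12.6% over merged regions with a dome peak, so they are not like measures. Counts within 1.5 times still differed from 26932. They were 39474 with equal numbers of peaks, 31888 with the 50% overlap and 24675 with the higher-scoring 50% of each list. Counting a later peak within 500 bp gave 18003, and leaving out the dense surroundings gave 24898. Shorter lists and stricter calls change the main quantities by construction, and all sequences or leaving out chromosome 4 moved none of the 8 beyond its interval. No paired analysis was possible because the labels number no replicates. With 1 library per stage, a dome-only call cannot be told apart from the spread between libraries.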

Other observations

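Along the chromosomes, dome-only regions numbered a median of 19 per Mb (quartiles 14 and 24) in 1369 windows of 1 Mb, and 1 window held none. The window with most was chromosome 3 from 9 to 10 Mb, with 51 of 215 regions with a dome peak (23.7%), followed by chromosome 4 from 56 to 57 Mb with 49 of 217. By share, chromosome 11 from 17 to 18 Mb stood highest with 29 of 116 (25%), and chromosome 2 from 32 to 33 Mb lowest with 5 of 147 (3.401%), among the 1365 windows with at least 50 such regions. Within 1 Mb of a chromosome end, 14.9% (14.2 to 15.6%) of regions with a dome peak were dome-only, against 12.5% (12.4 to 12.7%) farther inside.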
